A study of Homo sapiens with 2 samples.

Results

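The 9 genes described here are markers used to recognise the myeloid and T-cell lineages, namely CD33, ANPEP, MPO, CEBPA and CEBPB on the myeloid side (5 genes) and CD7, CD2, CD3E and GATA3 on the T-lineage side (4 genes). They were taken by name, their symbols were mapped to Ensembl gene IDs, and all 9 were found among the 57773 genes of the count files. RNA of human BCP-ALL (B-cell precursor acute lymphoblastic leukemia) cell lines was sequenced, with 1 library from REH and 1 library from 697. REH is positive for ETV6/RUNX1 and without the other, unrearranged copy of ETV6, whereas 697 lacks this fusion. Both lines were untreated cultures in RPMI medium with fetal bovine serum. Each is a single established line, so fusion, genetic background and culture cannot be told apart, and no value below has a replicate check.

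Lineage markers are genes whose products belong to a cell's specialised work. Myeloid precursors make granule enzymes such as myeloperoxidase under transcription factors of the C/EBP family and PU.1, and T-cell precursors assemble a CD3 receptor complex under factors that include GATA3. Leukemic B-cell precursors can carry isolated markers of either lineage. The myeloid surface antigens CD13 (the product of ANPEP) and CD33 are well known on ETV6/RUNX1-positive leukemia, and myeloperoxidase and CD3 are among the markers by which leukemias of ambiguous lineage are defined.

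The stretches upstream of 3 of these genes are shown because the genes gave contrasting patterns. CD33 had more reads in REH, CEBPA had reads only in 697, and CD2 had none in either library. The sequences are those of RefSeq on GRCh38.p14, read 5′ to 3′ on the strand of the gene, without annotated exons. The strand is plus for CD33 (chr19:51224830-51225063) and CD2 (chr1:116754180-116754429), and minus for CEBPA (chr19:33302535-33302784). Capitals mark the letters GAGGAA or, on the other strand, TTCCTC, the core bound by PU.1.
CD33 upstream: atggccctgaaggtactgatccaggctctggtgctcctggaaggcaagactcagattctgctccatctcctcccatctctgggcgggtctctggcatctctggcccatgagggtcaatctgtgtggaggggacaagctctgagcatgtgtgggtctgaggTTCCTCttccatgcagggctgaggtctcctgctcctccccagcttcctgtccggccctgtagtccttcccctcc
CEBPA upstream: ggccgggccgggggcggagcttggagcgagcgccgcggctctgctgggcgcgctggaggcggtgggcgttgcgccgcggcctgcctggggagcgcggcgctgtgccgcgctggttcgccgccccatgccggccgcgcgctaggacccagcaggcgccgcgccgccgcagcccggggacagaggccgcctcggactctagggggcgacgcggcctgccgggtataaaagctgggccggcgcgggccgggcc
CD2 upstream: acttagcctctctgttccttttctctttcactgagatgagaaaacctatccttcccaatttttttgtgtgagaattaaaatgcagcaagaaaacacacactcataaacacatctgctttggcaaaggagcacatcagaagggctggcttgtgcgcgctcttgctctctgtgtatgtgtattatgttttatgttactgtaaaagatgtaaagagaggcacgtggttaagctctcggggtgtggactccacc
The CD33 stretch held 1 such match, and the full window of 250 bases before its start held 2. Neither the CEBPA nor the CD2 window held these letters, nor did the windows of ANPEP, CEBPB and GATA3. No window was available for MPO, CD7 and CD3E. Of all 35116 windows of that length, 23.6% held these letters on either strand, so a match describes the sequence and shows no binding. The RUNX core TGTGGT, found in 11.0% of the windows on either strand, had no match in the windows of CD33, CEBPA and CD2. The CEBPA stretch consisted of 81.2% G and C, against 59.8% for CD33 and 42.8% for CD2.

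The REH library held 45188375 reads in genes and the 697 library 41097497. Expression is given as CPM, the count scaled to the size of its library by TMM (trimmed mean of M-values). Ratios are on the log2 scale, REH over 697, with 0.5 reads as a pseudocount. Intervals are 95% exact intervals that cover counting error only. A level of 3 reads, taken as the floor, corresponds to 0.0597 CPM in REH and 0.0812 CPM in 697. As a check of the labelled cell type, 11 matched B-lineage genes were examined (CD24, the remaining gene of that list, was not matched). All 11 had at least 10 reads in a library, among them PAX5 (39793 reads in REH and 45212 in 697) and EBF1 (18041 and 12116), whereas the surrogate light chain gene VPREB1 had 3 reads in REH and 10039 in 697. MS4A1, another gene of this list, had 670 reads in REH and 19 in 697. In bulk RNA, fewer cells with a transcript and less transcript per cell cannot be told apart.

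Of the 9 markers, 7 reached a minimum of 10 reads in REH or 697. A gene was called higher in a line where the log2 ratio reached 2 in size. MPO, CD3E and CD33 were higher in REH, CEBPA and GATA3 were higher in 697, and ANPEP and CEBPB lay between these limits. CD7 and CD2 had no read in either library. Among the 19145 genes that passed the same minimum, 20.7% reached this limit, 12.5% being higher in REH and 8.15% higher in 697. These shares are the background to the 5 of 7 markers past the limit, with 3 higher in REH and 2 higher in 697. Of the 5, CD33, CEBPA and CD3E reached the minimum only in the library where they were higher, with 0 or 1 read in the other. For such genes, here and in the lists below, the minimum nearly fixes the call, so the calls add no support. With so few genes and 1 library per line, the comparison of these shares is descriptive.

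**Figure D1:**
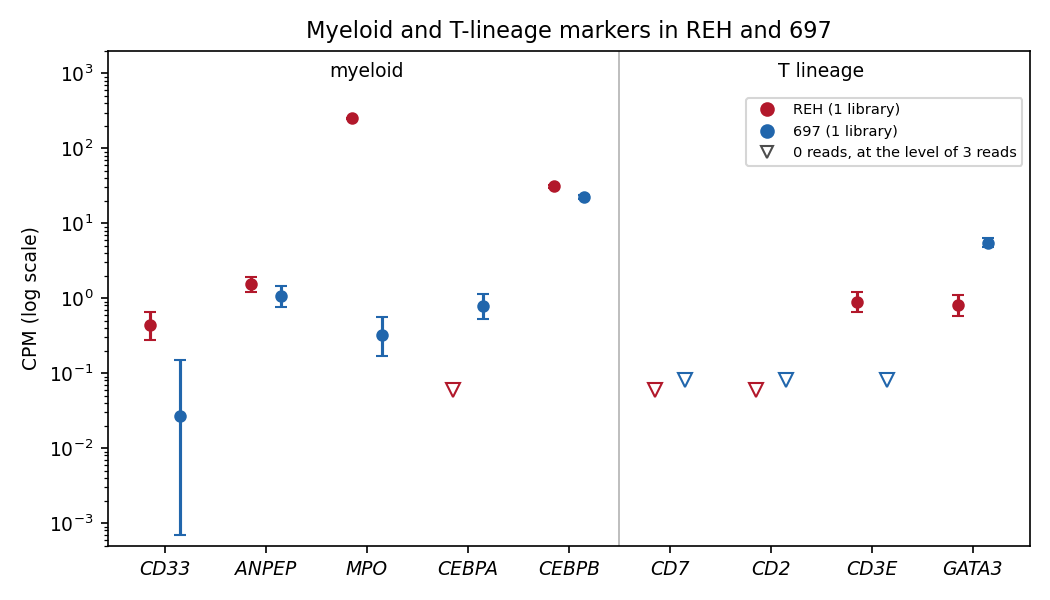
CPM (log scale) of each marker in REH (red) and 697 (blue), 1 library each, with 95% exact Poisson intervals; open triangles stand at the level of 3 reads for genes with 0 reads. MPO in REH (252 CPM) is the highest value, CEBPB stands at 31.0 and 22.5 CPM, and CD7 and CD2 have triangles only.

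MPO (ENSG00000005381, chromosome 17, 58269855 to 58280935 on GRCh38) encodes myeloperoxidase, the peroxidase of the primary granules of neutrophils and the classical enzyme marker of myeloid blasts. It had 12643 reads in REH and 12 reads in 697. In CPM these are 252 (interval 247 to 256) and 0.325 (0.168 to 0.567). The REH library was thus the one with MPO, and it alone held 87.9% of its marker reads in this gene. The log2 ratio was 9.54 (interval 8.79 to 10.55), a 743-fold difference. Reads were spread evenly over the strands in REH, with 6380 on the strand of the gene and 6263 on the opposite strand. The few reads in 697 equalled 0.0949% of the REH count. Among the 2349 genes with at least 5000 reads in REH, 15 had a smaller such share, and the lowest share was 0. Whether the 12 reads came from 697 cells or from another library was not tested.

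Per kb of exon, which allows genes to be compared within a library, MPO reached 56.8 CPM per kb in REH. This level exceeded 96.7% of the 12977 protein-coding genes with 10 reads or more there. It lay close to the B-lineage gene EBF1 (56.8 CPM per kb), and 7 of the 11 B-lineage genes stood above it and 4 below. In 697, MPO was at 0.0734 CPM per kb, a level above only 2.27% of 12229 protein-coding genes. Exon lengths were those of all annotated transcripts together, which lowers the value of genes with many alternative exons.

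**Figure D2:**
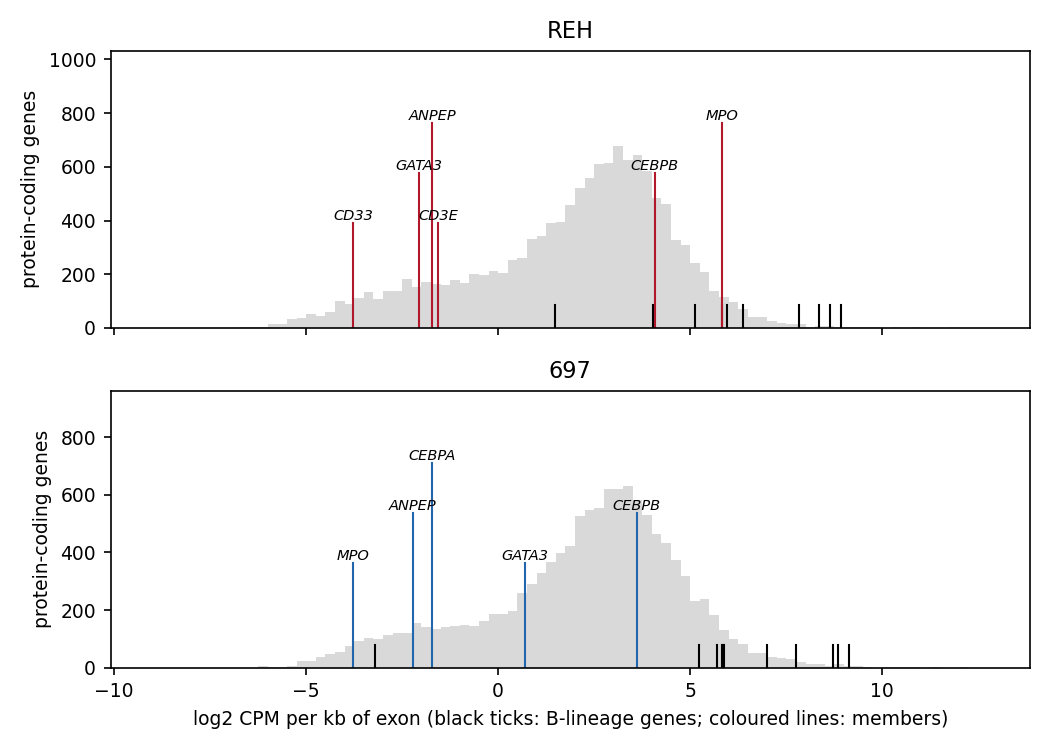
Histograms of log2 CPM per kb of exon over protein-coding genes with 10 reads or more in REH (top) and 697 (bottom); the vertical axis counts genes, coloured lines mark the lineage markers with at least 10 reads and black ticks mark B-lineage genes. MPO stands among the B-lineage ticks in REH at 56.8 CPM per kb and at the low end in 697 at 0.0734 CPM per kb.

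Other granule genes did not share the level of MPO. ELANE and PRTN3, the elastase and proteinase of the same granules, had 0 reads in both libraries, as did BPI, S100A8 and S100A9. AZU1 (azurocidin) had 0 reads in REH and 5 in 697, and lysozyme (LYZ) had 1 and 2. CTSG, the granule protease cathepsin G, had 72 reads in REH against 343 in 697 and was higher in 697 (log2 ratio -2.69, interval -3.08 to -2.33), the opposite direction to MPO. The related peroxidase genes did follow the direction of MPO at a far lower level. LPO (lactoperoxidase), whose annotated end lies 1337 bp from MPO, had 78 reads in REH and 0 in 697 in the column of both strands. Its separate strand columns summed to 240 and 31 reads, so the 0 in 697 gives no bound on the fold. EPX (eosinophil peroxidase) had 53 reads in REH against 1 in 697 (log2 ratio 4.71, interval 2.74 to 10.61). Of the 13 granule genes, 4 had at least 10 reads in a library, with 2 higher in REH and 1 higher in 697, where 12.5% and 8.15% of all genes tested were so called.

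CD33 and ANPEP encode surface antigens of myeloid cells, a sialic-acid-binding receptor and the membrane peptidase aminopeptidase N. CD33 (ENSG00000105383, chromosome 19, 51225064 to 51243860) had 22 reads in REH and 1 read in 697. Its levels were 0.438 CPM (interval 0.274 to 0.663) and 0.0271 CPM (0.000685 to 0.151), and the intervals did not overlap. The log2 ratio was 3.46, but its interval of 1.39 to 9.38 reached below the limit of 2. With 5 reads added in place of 0.5 the ratio was 1.73. Even in REH the level was low, with 3.43% of protein-coding genes below it per kb. Among the other 11 genes of the SIGLEC family, to which CD33 belongs, CD22, the B-cell member, was abundant in both libraries (10849 reads in REH and 13271 in 697). SIGLEC15 was higher in REH (965 and 6 reads, log2 ratio 6.77, interval 5.76 to 8.34) and SIGLEC10 was higher in 697 (41 and 147 reads, log2 ratio -2.27, interval -2.82 to -1.78). The remaining members had at most 10 reads in a library. SIGLECL1, beside CD33 on the chromosome, had 0 reads.

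ANPEP (ENSG00000166825, chromosome 15, 89784895 to 89815401) had 77 reads in REH and 40 reads in 697. These are 1.53 CPM (interval 1.21 to 1.91) and 1.08 CPM (0.773 to 1.47), which overlap. The interval of the log2 ratio of 0.49 ran from -0.07 to 1.09 and included 0, so a difference was not detectable at this depth. Per kb, ANPEP exceeded 12.4% of protein-coding genes in REH and 7.75% in 697. AP3S2, the nearest neighbour with over 10 reads, had 632 and 417 reads. The transcripts of these antigen genes were thus at the low end of both libraries.

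**Figure D3:**
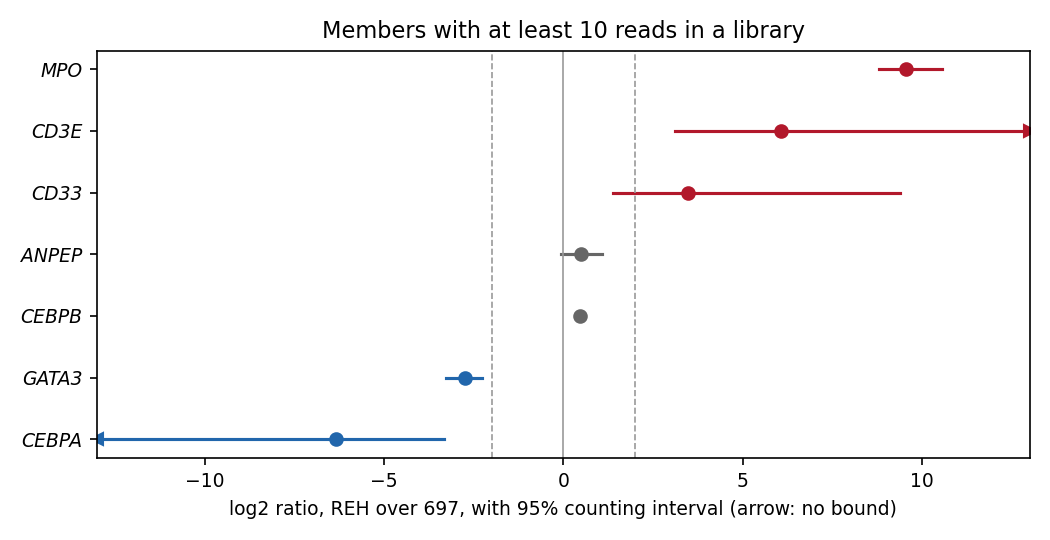
Log2 ratio of REH over 697 (horizontal axis) for the 7 markers with at least 10 reads in a library; points are the ratios, lines the 95% counting intervals, arrows sides without a bound, and dashed lines a log2 ratio of 2 in size. MPO (9.54) has a narrow interval, CD33 (3.46) a wide one that crosses the dashed line, and ANPEP includes 0.

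CEBPB and CEBPA encode transcription factors of myeloid cells, C/EBP beta, which also acts in inflammatory and metabolic responses, and C/EBP alpha, which is needed for the step to granulocytic precursors. CEBPB (ENSG00000172216, chromosome 20, 50190830 to 50192668) had 1560 reads in REH and 831 reads in 697. The levels were 31.0 CPM (interval 29.5 to 32.6) and 22.5 CPM (21.0 to 24.1). It was the marker with the most even expression of those with over 100 reads, at a log2 ratio of 0.46 (interval 0.34 to 0.59). Without TMM scaling this ratio became 0.77, so its size depended on the scaling. CEBPB made up 74.5% of the marker reads in 697, and per kb it exceeded 80.8% of protein-coding genes in REH and 69.6% in 697. In current annotation 36.4% of the CEBPB span is overlapped by CEBPB-AS1 on the opposite strand, a gene without a row in the count files.

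CEBPA (ENSG00000245848, chromosome 19, 33299934 to 33302534) had 0 reads in REH and 29 reads in 697, or 0.785 CPM (interval 0.526 to 1.13). With REH set at 3 reads and counting error in 697 left aside, CEBPA was at least 13.2-fold higher in 697. The interval with counting error of both libraries placed the log2 ratio at -3.33 or below. This count may be incomplete. In current annotation 2 lncRNA genes on the opposite strand, ENSG00000267580 and ENSG00000267727, cover 72.9% of the CEBPA span, and the column of both strands leaves out reads that fall in more than 1 gene. In that column each of these lncRNA genes had 0 reads in both libraries. In the separate strand columns they had 149 and 89 reads in 697, which is 238 together, and 0 in REH. The strand columns of CEBPA itself summed to 33 reads in 697 and 0 in REH. Whether the 238 reads belonged to CEBPA or to the lncRNAs was not tested, and why the strand columns of CEBPA did not hold them was not tested. CEBPA-DT, which starts 323 bp beyond CEBPA, had 22 reads in 697 and 0 in REH. The whole locus was thus without reads in REH in every column.

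**Figure D4:**
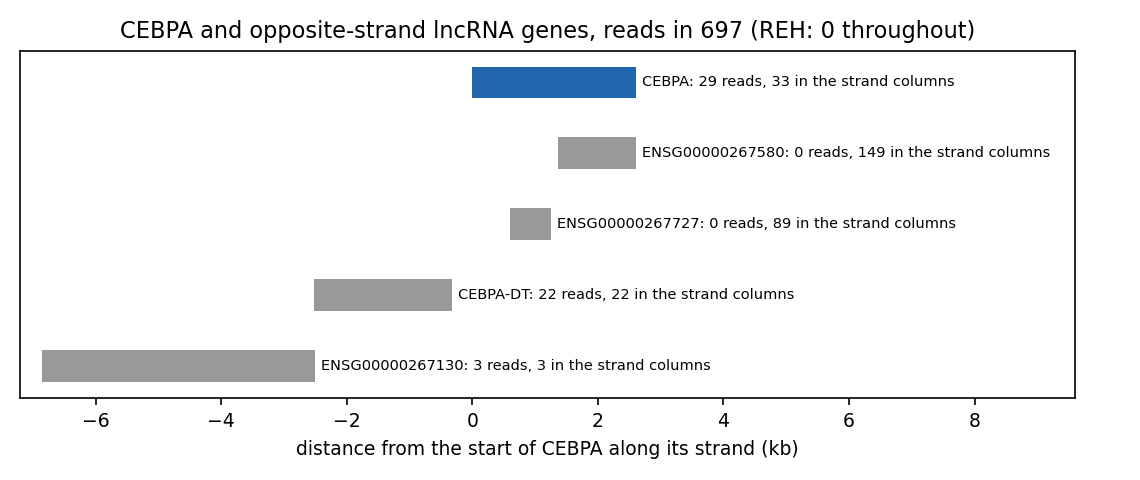
CEBPA (blue) and opposite-strand lncRNA genes (grey) drawn by distance from the start of CEBPA in kb along its strand, each with its reads in 697 in the column of both strands and in the strand columns together; REH had 0 reads in all. The lncRNA genes inside CEBPA have 0 reads in the first and 149 and 89 in the second.

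Other genes of the C/EBP family and further myeloid factors were compared next. CEBPE, the family member of late granulocytic differentiation, had 569 reads in REH against 3 in 697 (log2 ratio 6.90, interval 5.57 to 9.41). CEBPD had 1 and 0 reads. CEBPG and DDIT3, members with broad roles including the stress response, were abundant in both libraries (6690 and 5452 reads, and 3202 and 1404 reads). SPI1, which encodes PU.1, had 2810 reads in REH against 19 in 697 (log2 ratio 6.73, interval 6.12 to 7.50), and it was the listed gene whose pair of levels was nearest to that of MPO (distance 2.26 in log2 CPM over 2 libraries). This distance was larger than that of any other marker to its nearest listed gene, so the match was loose. REH thus had reads of CEBPE and SPI1 while CEBPA had none. KLF4, a factor of monocytic cells, ran the other way (8 and 163 reads, log2 ratio -4.71, interval -6.03 to -3.78), as did IRF8 (320 and 953 reads, log2 ratio -2.02, interval -2.21 to -1.83). GFI1, a repressor in granulocytic and lymphoid precursors, had 5157 and 1758 reads and a log2 ratio of 1.11.

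Receptors and adhesion molecules of myeloid cells were mixed. ITGAM, the integrin chain CD11b, had 403 reads in REH and 0 in 697, at least 98.7-fold higher in REH with 697 set at 3 reads and counting error in REH left aside. CSF3R, the G-CSF receptor, had 920 and 32 reads (log2 ratio 4.38, interval 3.89 to 4.96), and KIT, the stem cell factor receptor, had 617 and 12 (log2 ratio 5.18, interval 4.42 to 6.20). In contrast, the inhibitory receptor gene LILRB4 had 105 and 519 reads (log2 ratio -2.74, interval -3.07 to -2.44). Of further surface markers, CD14 had 29 and 8 reads, CD68 had 8 and 1, and FCGR1A and CLEC12A had 0 in both libraries. CSF1R had 30 and 61 reads. CD163 had 22 and 0 reads and was past the limit toward REH. Of the 35 myeloid genes beyond the markers, 20 had at least 10 reads in a library, 8 of them higher in REH, 4 higher in 697 and 8 in neither group. The shares over all genes tested were 12.5% and 8.15%. Their median log2 ratio was 0.99, against 0.05 over all genes tested, and the former had the same value with unmeasured ratios set at their bounds. Myeloid genes therefore differed in both directions between these libraries.

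On the T-lineage side, CD7 (ENSG00000173762, chromosome 17, 82314868 to 82317608) and CD2 (ENSG00000116824, chromosome 1, 116754430 to 116769229) encode surface molecules of T and NK cells, CD7 being among the earliest of T-cell precursors. Both had 0 reads in each library and in each strand column. The exact interval of 0 reads reaches up to 0.0734 CPM in REH and 0.0998 CPM in 697, so lower levels were not detectable at this depth. SECTM1, which lies beside CD7 and encodes a CD7 ligand, also had 0 reads, while CD58, which encodes the ligand of CD2, had 2429 reads in REH and 3820 in 697.

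CD3E (ENSG00000198851, chromosome 11, 118304730 to 118316175) encodes the epsilon chain of the CD3 complex that carries the signal of the T-cell receptor. It had 45 reads in REH and 0 reads in 697. The level in REH was 0.895 CPM (interval 0.653 to 1.20), which is at least 11.0-fold higher with 697 set at 3 reads and counting error in REH left aside, and 13.1% of protein-coding genes lay below it per kb. The interval with counting error of both libraries placed the log2 ratio at 3.10 or above. Its REH reads fell on both strands, 27 on the strand of the gene and 18 on the opposite one. The partner chains were not seen at this level. CD3D had 0 reads in both libraries and CD3G had 2 in REH and 1 in 697. CD247, the zeta chain, which is also used by NK-cell receptors, had 498 and 87 reads (log2 ratio 2.07, interval 1.74 to 2.42). PTCRA, the pre-T-cell receptor alpha chain, had 14 and 35 reads.

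GATA3 (ENSG00000107485, chromosome 10, 8045378 to 8075198) encodes a zinc finger factor needed for T-cell development. It had 41 reads in REH and 203 reads in 697. These are 0.816 CPM (interval 0.585 to 1.11) and 5.49 CPM (4.76 to 6.30), and 697 was higher without overlap of the intervals. The log2 ratio of -2.74 (interval -3.27 to -2.26) corresponds to a 6.67-fold difference. Per kb, GATA3 exceeded 10.6% of protein-coding genes in REH and 23.6% in 697, so it remained in the lower part in both. The antisense gene GATA3-AS1, which covers 10.2% of its span, had 1 read in REH and 0 in 697, and the strand columns of GATA3 summed to the count of both strands. The other GATA genes examined (GATA1, GATA2, GATA4, GATA5 and GATA6) had at most 6 reads in a library. The nearest pair of levels among the listed genes was that of SIGLEC10 (distance 0.46 in log2 CPM over 2 libraries).

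Further T-lineage genes were examined to place these markers. Of the 30 genes beyond the markers, 20 had at least 10 reads in a library, with 5 higher in REH, 4 higher in 697 and 11 in neither group, beside 12.5% and 8.15% of all genes tested. The 5 became 2 at a minimum of 50 reads or with 5 reads added, and 1 in the column of the gene's strand. The 4 became 10 at a limit of 1. The shares of 12.5% and 8.15% hold only for a minimum of 10 reads and a limit of 2. Shares over all genes at the other settings are not given, so the altered counts cannot be set against a background. The median log2 ratio was -0.98, against 0.05 over all genes tested, and it was the same with unmeasured ratios at their bounds. The 30 genes include CD58, the gene of the CD2 ligand, which lay between the limits. CD96, a surface receptor of T and NK cells, had 64 reads in REH against 12123 in 697 (log2 ratio -8.00, interval -8.39 to -7.66). It was the listed T-lineage surface gene with the most reads in 697, at 328 CPM. CD1A, a marker of cortical thymocytes, had 1 and 141 reads (log2 ratio -7.00, interval -12.90 to -5.08), and TOX, a factor of thymocyte selection, had 34 and 553 reads (log2 ratio -4.45, interval -5.01 to -3.97). TCF7, a factor of early T-cell precursors, was higher in REH (477 and 6 reads, log2 ratio 5.75, interval 4.74 to 7.32). The coreceptor genes CD4 and CD8B had 0 reads in both libraries, CD8A had 0 and 10, and CD5 had 5 and 0.

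Among 8 T-cell signalling genes, 6 passed the minimum and 4 of these lay between the limits. LCK, the kinase that starts T-cell receptor signalling, had 402 and 956 reads, the kinase gene ZAP70 had 1700 and 2273, RASGRP1 had 1585 and 1807, and the adaptor gene LAT had 30 and 73. In the list of T-cell factors, LEF1, a factor of both lymphoid lineages, had 29884 and 38926 reads. BCL11B, which fixes the T-cell fate, had 1141 and 1848 reads (log2 ratio -1.14, interval -1.25 to -1.03). TRAT1, an adaptor of the T-cell receptor and past the limit, had 14 reads in REH and 0 in 697. CD3E and GATA3 thus stood among T-lineage genes that differed in both directions between these libraries.

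**Figure D5:**
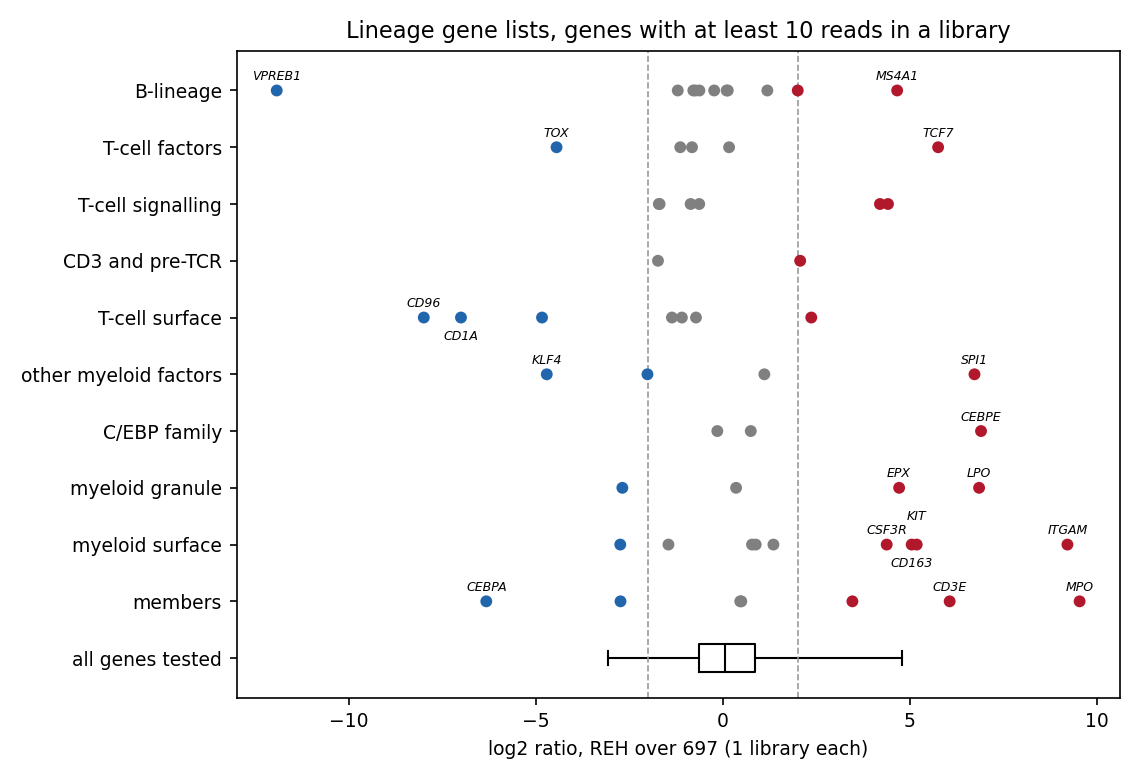
Log2 ratio of REH over 697 (horizontal axis) for each listed gene that passed the minimum of 10 reads, 1 row per gene list, coloured red or blue past the dashed limits of 2 in size; the box gives the quartiles and the whiskers the 5th and 95th percentiles of all genes tested. Genes of the myeloid and T-cell lists lie on both sides, from ITGAM (9.21) at the REH end to CD96 (-8.00) at the 697 end. MPO (9.54) is in the row of the markers.

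The listed gene nearest in its pair of levels was sought for each of the 7 markers among 120 genes, as a description over 2 libraries. It was CD28 for CD33 (distance 1.10 in log2 CPM), TBX21 for ANPEP (0.98), CD8A for CEBPA (1.49), FUT4 for CEBPB (0.99) and CD34 for CD3E (0.78). Of these genes, FUT4 (an enzyme gene on the myeloid surface list) had 1133 reads in REH and 453 in 697, and the others had at most 43. Several nearest genes belonged to another lineage than the marker. The distance of 2.26 between MPO and SPI1, given above, was the largest among the 7 markers.

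Markers of other cell types were counted in the same libraries. Of 9 NK-cell genes, 3 had at least 10 reads in a library, including NKG7 (123 reads in REH and 542 in 697, log2 ratio -2.58) and PRF1 (53 and 6), while GZMB, NCAM1 and NCR1 had 0 in both. Per kb, NKG7 in 697 exceeded 76.4% of protein-coding genes. Summed over that list the levels were 4.08 CPM in REH and 15.2 CPM in 697. NKG7 alone gave 2.447 CPM in REH and 14.7 CPM in 697 of these sums. PRF1 ran the other way and was higher in REH, so the sums do not give a direction for the list as a whole. Of 9 erythroid and megakaryocyte genes, 3 had at least 10 reads, namely GP9 (12 and 93 reads, log2 ratio -3.35, higher in 697), GP1BA (236 and 160) and ITGA2B (132 and 65). HBB, HBD and PF4 had 0 in both libraries, and the summed levels were 7.68 and 8.88 CPM. Among progenitor genes, FLT3 was even (7636 and 5321 reads), whereas CD34 (26 and 0) and PROM1 (204 and 10) were higher in REH, as was KIT. Summed over the 35 myeloid genes the levels were 443 CPM in REH and 303 CPM in 697, and over the 30 T-lineage genes 770 and 1716 CPM. At 0 in both libraries were 7 of the former, ELANE and PRTN3 among them, and 6 of the latter, CD3D among them. A few abundant genes carried much of both sums. LEF1, of both lymphoid lineages, gave 595 CPM in REH and 1054 CPM in 697 of the T-lineage sums. CD96 gave 1.27 CPM in REH and 328 CPM in 697 of the same sums. CEBPG, with broad roles, gave 133 and 148 CPM of the myeloid sums. The part of cells of another lineage in the marker values was not tested.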

How the data were processed

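Total RNA of REH and 697 cells was sequenced, with 1 library per line. The files deposited by the authors hold untransformed STAR read counts for each gene, in 3 count columns (either strand, the strand of the gene, the opposite strand), neither normalized nor filtered. Multimapping reads are left out, and reads shared by overlapping genes are ambiguous. The methods name hg38 and poly(A) purification, whereas the submitters' processing notes name hg19 and the labels ribodepletion. The annotation release is not given in the sources used here. The reads were unstranded in practice (50.1% and 50.2% on the strand of the gene).

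The column of both strands was used. Reads outside genes, unmapped, multimapping or ambiguous stayed out of library totals; unassigned shares were 12.7% (no gene) and 4.58% (ambiguous) of all reads in REH, and 9.32% and 4.41% in 697. Symbols, positions and exon lengths came from GENCODE 44 (GRCh38) by gene ID, where 51996 of 57773 IDs matched. These positions are not coordinates used by the authors. Genes reaching 10 reads in REH or 697 were compared after TMM scaling (edgeR 4.0.16, R 4.3.3, factors 1.11 and 0.899), with 0.5 reads added. The interval of a ratio is the Clopper-Pearson interval of the share of reads from REH, and levels have exact Poisson intervals. With 1 library per line no p-value was computed, and duplicate reads are not independent molecules. The limit was a log2 ratio of 2 in size.

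The markers and lists were chosen with earlier results of these data known. Named genes were the markers, listed genes with at least 100 reads and a ratio past the limit, up to 3 abundant genes per list, genes within 20 kb of a marker and the listed gene nearest in level. Other listed genes (such as ELANE, CD3D and others at low counts) were named after their values were seen. The computation was tested on simulated data. Some items of the lists are not reported here by name. Alternatives were unscaled totals, size factors of DESeq2 1.42.0, TMM factors from protein-coding genes, other read minimums, pseudocount and limit, and the strand columns. Scripts ran in Python 3.11.15 (scipy 1.17.1, pandas 2.3.3, numpy 2.4.6, matplotlib 3.10.9).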

Additional observations from a re-analysis of the deposited data

Results flagged for a closer look

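The comparisons used reads on either strand. The separate strand columns hold further reads that the main column left out as ambiguous, and for the markers and the genes within 20 kb of them such reads were above the level of 3 reads in these cases. In 697 the lncRNA genes inside CEBPA had 149 (ENSG00000267580) and 89 (ENSG00000267727) such reads, and CEBPA itself had 4, while REH had 0 at all of them. LPO, beside MPO, had 162 such reads in REH and 31 in 697, so the 0 reads of LPO in 697 hold only for the column of both strands. The source of these reads was not tested. With 1 library per line, no outlying sample could be sought.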

How the results depend on the processing

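No paired analysis was possible because REH and 697 were sequenced once each, and for the same reason no replicate could be left out. The ratios of the 7 markers were recomputed under 7 alternatives, and all 49 values kept their sign. Of these, 3 left the counting interval, CEBPB without TMM scaling (0.77) and CEBPA and CD3E with 5 reads added (-3.21 and 2.88). Omitting TMM scaling moved every ratio by 0.31 and the median of all genes to 0.36. It turned the median of the B-lineage genes from -0.23 to 0.0739 and lowered the myeloid genes higher in 697 from 4 to 3.

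In the main setting, 5 T-lineage and 2 B-lineage genes (MS4A1 and CD79B) were higher in REH. In 697, 4 T-lineage genes and 1 B-lineage gene (VPREB1) were higher. The other 8 of the 11 B-lineage genes lay between the limits. The shares over all genes were 12.5% and 8.15%, and the counts at other settings below have no such share beside them. With a minimum of 50 reads, 1 marker was higher in REH (MPO), 1 was higher in 697 (GATA3), and 2 T-lineage genes were higher in REH, since fewer genes were tested. With 5 reads added, 2 markers (without CD33, at 1.73), 2 T-lineage genes and 1 B-lineage gene were higher in REH. In the column of the gene's strand, 1 marker was higher in 697 and 2 were higher in REH, because CEBPA and CD33, each at 9 reads, were not tested, and 1 T-lineage and 1 B-lineage gene were higher in REH. In the column of the opposite strand, 2 T-lineage genes were higher in REH. With DESeq2 size factors, 1 B-lineage gene was higher in REH. CD79B had stood almost exactly at the limit in the main setting, at 2.001, so its call hung on small shifts of scaling. At a log2 ratio of 1, 10 T-lineage and 2 B-lineage genes were higher in 697. The sum of the strand columns, chosen after seeing the data, moved no number of genes by over 1.5 times. Depth gave no ratio for CD7 and CD2, with 0 reads, and wide intervals for CD33, CEBPA and CD3E, each with fewer than 50 reads.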
